A study of Homo sapiens with 6 samples.

Results

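Pioneer target genes of MYB are genes that wild-type MYB restores after knockdown of the endogenous protein and that a MYB mutant without pioneer activity does not. The 10 described here, SCAF4, DNAJC12, GDF15, TAC3, CNKSR3, MEX3C, NEFH, SINHCAF, MRAP2 and KCNH2, belong to the study's list of 115 such genes, and they were chosen by their FPKM in these very libraries, which differed between cells carrying either of 2 SUMO mutants of MYB. They are 10 of the 58288 genes in the deposited expression values, each found by its Ensembl gene ID, and all 10 passed the filter on low values that left 12634 genes for testing. Because the difference between the mutants chose them, their values are given as a description and no test of that difference is made for them.

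The cells were K562, a human erythroleukemic cell line. Each rescue was a single cell clone that stably expressed MYB with a 3xFLAG tag and an HA tag, kept under 200 µg/ml G418: clone 18 expressed 2KR-MYB, in which the lysines that accept SUMO are replaced by arginine, and clone 5 expressed ANAA-MYB, in which the SUMO-interaction motif is mutated. Both clones were transfected with siU2992, an siRNA against the endogenous MYB transcript, and RNA was extracted 24 h later from 3 replicates of each. Since each mutant was represented by 1 clone, the mutant and the clone cannot be told apart in any difference below, and replicates measure the spread within a clone. Control, knockdown and wild-type rescue columns were not used here, so nothing is said about which mutant restores a gene.

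MYB is a transcription factor of blood progenitors that binds DNA through its N-terminal repeats at sites with the core AACNG. SUMO is a small protein that is joined to lysines of other proteins and can also be bound by short hydrophobic motifs; both modes of contact are known to hold back activation by MYB. The 2KR mutant cannot be conjugated to SUMO and the ANAA mutant cannot bind it, and the comparison asks whether the loss of either mode gives the same expression of target genes. A pioneer factor is one that can engage its sites in closed chromatin.

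Expression is given as FPKM, fragments per kilobase of transcript and per unit of mapped fragments, which is scaled for gene length so that levels of different genes can be set side by side. Differences are on the log2(FPKM + 1) scale, the ANAA-MYB mean taken from the 2KR-MYB mean, with the standard error (SE) from limma; this scale understates the change of low genes. A gene outside the 10 was called when its Benjamini-Hochberg adjusted p from limma over all tested genes was under 0.01. By this rule 13.0% of the 12634 tested genes were called, 5.57% higher and 7.42% lower with 2KR-MYB. With the libraries scaled to a common upper quartile, 54.5% of the calls were higher with 2KR-MYB, against 42.9% as deposited. The 3 libraries of a rescue lay wholly above or below the 3 of the other for 44.9% of tested genes. Pearson's r on log2(FPKM + 1) was 0.983 to 0.989 for pairs of libraries within a rescue and 0.968 to 0.973 between rescues. The summed FPKM of a library ran from 579920 to 633662, and the depth behind the values is unknown.

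MYB itself, counted over the transcript of the construct and what was left of the endogenous one, had 69.0, 61.2 and 67.5 FPKM in the libraries of 2KR-MYB, against 53.6, 55.3 and 62.0 FPKM in those of ANAA-MYB. The 2KR-MYB mean was higher, but the libraries overlapped. The log2 difference was 0.21 (SE 0.070), which did not pass the threshold in limma (adjusted p = 0.062; exact two-sided permutation test, p = 0.2, where 0.1 is the smallest value that 3 against 3 libraries allow). Over the alternative settings the limma adjusted p ran from 0.026 to 0.17. The part of this gap in MYB level in the values of the 10 genes was not tested.

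Of the 10 genes, 7 were higher with 2KR-MYB and 3 were higher with ANAA-MYB, and in all 10 the libraries of the rescues did not overlap, as the choice of these genes fixes (44.9% of all tested genes had libraries apart). The largest differences were those of GDF15 and TAC3, at 2.19 and 2.87 times the ANAA-MYB mean, and the smallest was that of KCNH2, at 1.19 times. They covered a wide range of expression: KCNH2 lay at the 95.5th percentile of tested genes by mean FPKM and TAC3 at the 17.0th. Among all tested genes, the size of the log2 difference placed TAC3 at the 98.6th percentile and KCNH2 at the 72.6th. Leaving out each library in turn changed the direction of none of the 10. In RNA from whole cultures, fewer cells that express a gene and less of its RNA per cell cannot be told apart.

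**Figure D1:**
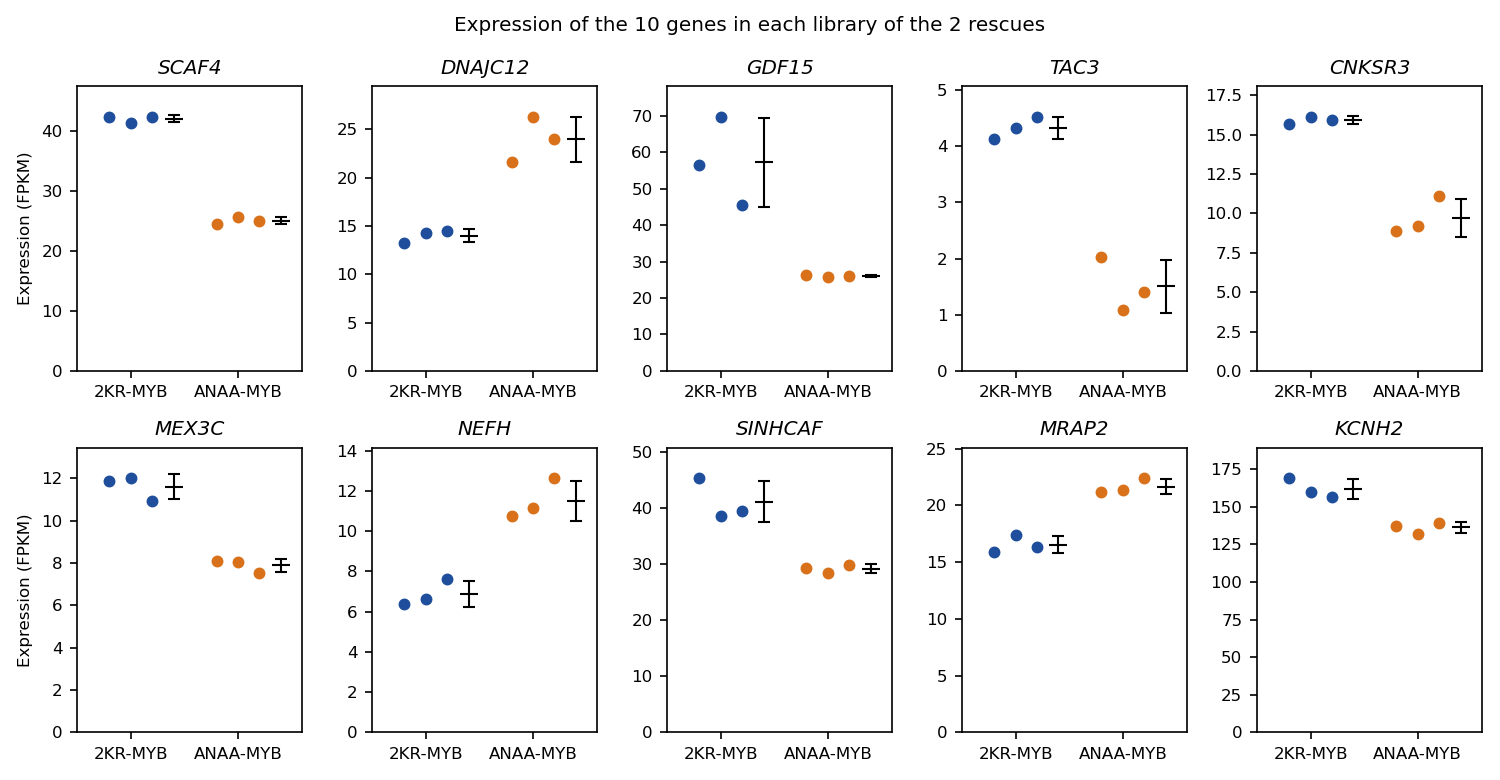
FPKM of the 10 genes in each library. Each panel is 1 gene with its own vertical axis from 0, blue points are the 3 libraries of the 2KR-MYB rescue, orange points the 3 of the ANAA-MYB rescue, and the black bar beside them is the mean with 1 SD; the point sets do not overlap in any panel, and GDF15 with 2KR-MYB ranges from 45.5 to 69.8 FPKM beside a close ANAA-MYB set.

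Promoter sequence is shown for 4 of the 10 genes, to set the MYB core next to the expression values: SINHCAF has the most matches, TAC3 is the only gene with a match that is preceded by T, DNAJC12 is a gene that was higher with ANAA-MYB, and GDF15 has no match. The windows are from RefSeq (GRCh38.p14), each 300 bases from 250 before to 50 after the annotated start, printed 5′ to 3′ along the gene's own strand. They lie at chr12:31326101-31326400 (SINHCAF, minus strand), chr12:57016480-57016779 (TAC3, minus strand), chr10:67838139-67838438 (DNAJC12, minus strand) and chr19:18385908-18386207 (GDF15, plus strand). Capitals mark AACNG, read on either strand, so that a match on the opposite strand appears as CNGTT.
SINHCAF: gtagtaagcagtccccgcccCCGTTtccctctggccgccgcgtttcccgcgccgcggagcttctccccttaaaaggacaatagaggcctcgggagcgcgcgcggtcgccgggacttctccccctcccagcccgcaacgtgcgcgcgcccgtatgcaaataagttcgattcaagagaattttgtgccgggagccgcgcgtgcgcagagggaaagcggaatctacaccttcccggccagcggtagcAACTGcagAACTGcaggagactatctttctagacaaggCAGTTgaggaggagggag
TAC3: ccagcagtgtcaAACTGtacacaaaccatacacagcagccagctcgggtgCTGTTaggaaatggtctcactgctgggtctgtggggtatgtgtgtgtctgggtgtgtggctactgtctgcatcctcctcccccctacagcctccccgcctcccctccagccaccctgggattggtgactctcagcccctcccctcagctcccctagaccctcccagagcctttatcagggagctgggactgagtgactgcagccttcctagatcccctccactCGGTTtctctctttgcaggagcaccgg
DNAJC12: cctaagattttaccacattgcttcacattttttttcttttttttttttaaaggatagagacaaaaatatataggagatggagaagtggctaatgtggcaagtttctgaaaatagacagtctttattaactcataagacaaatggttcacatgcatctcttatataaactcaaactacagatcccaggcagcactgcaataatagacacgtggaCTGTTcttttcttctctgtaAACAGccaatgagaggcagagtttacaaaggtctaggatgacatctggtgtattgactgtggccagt
GDF15: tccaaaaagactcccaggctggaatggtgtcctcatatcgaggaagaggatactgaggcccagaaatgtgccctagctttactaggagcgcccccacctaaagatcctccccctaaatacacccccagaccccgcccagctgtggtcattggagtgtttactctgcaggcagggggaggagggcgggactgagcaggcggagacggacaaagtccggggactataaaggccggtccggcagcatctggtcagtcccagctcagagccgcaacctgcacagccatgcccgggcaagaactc
These letters are common. AACNG occurred in 6 of the 8 windows that the RefSeq table holds for these genes (75%), in 77.2% of 27305 promoters and in 62.8% of 78 windows of the other genes on the pioneer list. TAACNG, which is AACNG with a T before it and so a subset of the same matches, occurred in 1 of the 8 (12.5%) and in 20.7% of all promoters. SINHCAF had 4 matches of AACNG, of which the copies that begin 6 bases before and 2 bases after the start lie close together. In TAC3 the match preceded by T begins 200 bases before the start, on the opposite strand. DNAJC12 had a match on each strand, beginning 37 and 17 bases before the start, in a window of 36.3% GC, at the 6.0th percentile of all promoters. CNKSR3 had 2 matches, KCNH2 and MEX3C 1 each, and MRAP2 none. The windows of SCAF4 and NEFH were not used here. A match is only a run of letters and says nothing about binding in these cells.

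SINHCAF, SCAF4 and MEX3C act on chromatin or RNA, and all were higher with 2KR-MYB. SINHCAF (ENSG00000139146, chromosome 12, 31280584 to 31326150), a subunit of the SIN3 histone deacetylase complex, had 45.3, 38.6 and 39.4 FPKM in the 3 libraries of 2KR-MYB, against 29.4, 28.3 and 29.9 FPKM in those of ANAA-MYB. The first 2KR-MYB library was the highest of the 6, and the other two still lay 8.71 FPKM or more above every ANAA-MYB library. This came to a log2 difference of 0.48 (SE 0.067), which ranged from 0.41 to 0.52 with each library left out.

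All 17 other listed subunits of that complex were tested, and 1 was called (5.88%, against 13.0% of all tested genes). This was ARID4A, a chromatin-binding subunit, at 9.62 ± 0.756 against 6.22 ± 0.288 FPKM (SD, n = 3 each; log2 difference 0.55, SE 0.073, limma adjusted p = 0.0013, and past the threshold in every setting tried). The scaffold SIN3A stood at 24.3 FPKM with 2KR-MYB and 26.7 FPKM with ANAA-MYB as means, and the deacetylases HDAC1 (182 and 184 FPKM) and HDAC2 (108 and 116 FPKM) differed less still. Larger differences were those of ARID4B, lower with 2KR-MYB at 16.4 against 19.1 FPKM (-0.21, limma adjusted p = 0.033), and SAP30, higher at 26.1 against 21.2 FPKM (0.30, limma adjusted p = 0.043). None of these passed. Over the list 7 subunits were higher and 10 lower with 2KR-MYB. The list as a whole had a median log2 difference of -0.02, beside -0.015 for all tested genes.

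SCAF4 (ENSG00000156304, chromosome 21, 31671000 to 31732118) encodes a protein that binds the C-terminal domain of RNA polymerase II and keeps transcripts from ending at early polyadenylation sites. It had 42.4, 41.3 and 42.4 FPKM in the 2KR-MYB libraries, compared with 24.5, 25.7 and 24.9 FPKM with ANAA-MYB. Both triplets were tight, with a coefficient of variation of 1.47% and 2.39%, and 15.6 FPKM separated them. Between the means lay a log2 difference of 0.72 (SE 0.045), and no left-out library moved it outside 0.71 to 0.74.

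SCAF8, the relative that shares this role with SCAF4, was at 33.3 ± 0.639 FPKM with 2KR-MYB and 28.5 ± 1.53 FPKM with ANAA-MYB (SD, n = 3 each), a log2 difference of 0.22 (limma adjusted p = 0.019) that passed the threshold after upper quartile scaling (adjusted p = 0.0071) and quantile normalization (adjusted p = 0.0076). The more distant SCAF11 and SCAF1 had log2 differences of 0.07 and -0.05. Of 20 tested genes of 3′ end formation and polymerase binding, 1 was called (5%, against 13.0% of all tested genes). This was PCF11, a cleavage and termination factor that also binds the polymerase tail, at 41.2 against 33.7 FPKM (0.28, SE 0.051, limma adjusted p = 0.0051). Its call was lost without 2KR-MYB library 2 or 3 or any ANAA-MYB library, with an adjusted p of up to 0.024. The list had a median of 0.03.

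MEX3C (ENSG00000176624, chromosome 18, 51174550 to 51197681), an RNA-binding ubiquitin ligase that promotes decay of its target transcripts, had 11.8, 12.0 and 10.9 FPKM with 2KR-MYB, against 8.09, 8.04 and 7.52 FPKM with ANAA-MYB. The gap between the closest libraries was 2.83 FPKM. On the log2 scale MEX3C differed by 0.50 (SE 0.063; 0.47 to 0.54 with each library left out). Its relative MEX3A was lower with 2KR-MYB at 5.45 ± 0.233 against 8.53 ± 0.464 FPKM (SD, n = 3 each; -0.56, SE 0.068, limma adjusted p = 0.00087), while MEX3B (-0.15, limma adjusted p = 0.34) and MEX3D (-0.21, limma adjusted p = 0.18) did not pass.

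CNOT7, the deadenylase that MEX3C recruits to transcripts, was also lower with 2KR-MYB, at 57.6 ± 3.62 against 95.8 ± 7.17 FPKM (SD, n = 3 each; -0.72, SE 0.069, limma adjusted p = 0.00032). Of the 40 tested genes around CNOT7 on chromosome 8, 28 had lower means with 2KR-MYB, and the median was -0.39. Of these neighbours 18 were called lower and 4 higher (55% called, against 13.0% of all tested genes). The deadenylase CNOT8 and the scaffold CNOT1, on other chromosomes, had log2 differences of -0.04 and -0.01. In all, 2 of the 6 tested genes of this list were called (33.3%, against 13.0% of all tested genes). Both were lower with 2KR-MYB, where 7.42% of all tested genes were called.

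A pair of the genes encode secreted signals, and these had the largest differences. GDF15 (ENSG00000130513, chromosome 19, 18386158 to 18389176), a TGF-β family cytokine that cells release under stress and that lowers appetite through a receptor in the hindbrain, was at 56.4, 69.8 and 45.5 FPKM with 2KR-MYB. With ANAA-MYB it was at 26.2, 25.9 and 26.1 FPKM. The spread was thus wide in the 2KR-MYB clone, with a coefficient of variation of 21.3%, and very narrow in the ANAA-MYB clone, at 0.713%, yet the lowest 2KR-MYB library stood 19.2 FPKM above the highest ANAA-MYB library. The mean was 2.19 times as high with 2KR-MYB. Its log2 difference of 1.08 (SE 0.13) lay between 0.93 and 1.23 with each library left out.

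Of 13 tested genes that are known to act with GDF15 or to be induced beside it, 5 were called (38.5%, against 13.0% of all tested genes), all higher with 2KR-MYB, where 5.57% of all tested genes were called; the median was 0.37. CDKN1A, the cell cycle inhibitor p21, was at 9.73 ± 1.10 against 3.66 ± 0.334 FPKM (SD, n = 3 each; 1.20, SE 0.095, limma adjusted p = 0.00014). DDIT3, ATF3 and ATF4 are transcription factors of the stress response that are known to act upstream of GDF15. DDIT3 (CHOP) was at 69.05 ± 5.55 against 43.5 ± 0.994 FPKM (0.65, SE 0.063, limma adjusted p = 0.00035), ATF3 at 12.6 ± 2.30 against 6.46 ± 0.585 FPKM (0.85, SE 0.12, limma adjusted p = 0.0019) and ATF4 at 292 ± 17.4 against 225 ± 7.96 FPKM (0.37, SE 0.057, limma adjusted p = 0.0026), each with SD and n = 3 per rescue. The fifth was the immediate early factor EGR1 (0.54, SE 0.10, limma adjusted p = 0.0063). ATF4 and EGR1 were named after their values were seen. The list was chosen with earlier results of these data known, so its share of calls is no independent evidence.

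The calls of CDKN1A and DDIT3 held in every setting. ATF3 was lost without the second ANAA-MYB library (adjusted p = 0.01002). ATF4 was lost without the first or second 2KR-MYB library or the second ANAA-MYB library, with an adjusted p of up to 0.014. Among the fits with a library left out, EGR1 held without the third 2KR-MYB library only, with an adjusted p of up to 0.026 otherwise. With no filter on low values ATF3, ATF4 and EGR1 were all lost (limma adjusted p = 0.017, 0.015 and 0.033). EGR1 was also lost with the replicate block (limma adjusted p = 0.0101). The amino acid stress targets TRIB3 (0.11), ASNS (0.18) and CHAC1 (0.28) did not pass, and neither did MDM2 (-0.15). GADD45A, which is also on the pioneer list, was at 57.0 against 41.9 FPKM (0.43, limma adjusted p = 0.016) and passed without the third 2KR-MYB library (adjusted p = 0.0029). The receptor GFRAL was listed at 0 in every library and its co-receptor RET reached at most 0.00542 FPKM.

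TAC3 (ENSG00000166863, chromosome 12, 57010000 to 57016529) encodes the precursor of neurokinin B, a tachykinin peptide best known from the neurons that govern release of gonadotropins. Its level was low, at 4.13, 4.33 and 4.53 FPKM with 2KR-MYB and at 2.02, 1.09 and 1.41 FPKM with ANAA-MYB. The 2KR-MYB libraries were close together and the ANAA-MYB libraries were not, with a coefficient of variation of 31.4%; 2.104 FPKM separated the closest libraries. The mean was 2.87 times as high with 2KR-MYB, the largest ratio of the 10. The log2 difference was 1.10 (SE 0.13; 0.98 to 1.25 with each library left out) and became larger, at 1.50, with a pseudocount of 0.1. The receptor TACR3 was listed at 0 in all 6 libraries, the related precursor TAC1 reached at most 0.573 FPKM and TAC4 0.0548 FPKM, and only the peptidase MME (neprilysin), which degrades tachykinins, was high enough to be tested. It was at 5.16 against 4.19 FPKM and did not pass (0.25, limma adjusted p = 0.079).

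MRAP2, KCNH2 and CNKSR3 act at the cell membrane or behind it, and they did not share a direction. MRAP2 (ENSG00000135324, chromosome 6, 84033178 to 84146282), an accessory protein of the melanocortin receptor MC4R, had 15.9, 17.4 and 16.4 FPKM in the 2KR-MYB libraries, compared with 21.2, 21.4 and 22.4 FPKM with ANAA-MYB. It was higher in every ANAA-MYB library, by at least 3.74 FPKM. As a log2 difference this is -0.37 (SE 0.055; -0.40 to -0.34 with each library left out). Of the 11 genes listed with it, 8 were listed at 0 in all 6 libraries, MC4R, its relative MRAP, POMC and AGRP among them, and the only gene tested was MC1R, at 3.05 against 2.31 FPKM (0.29, limma adjusted p = 0.048), short of the threshold.

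KCNH2 (ENSG00000055118, chromosome 7, 150944961 to 150978321) encodes hERG, the potassium channel that carries the rapid delayed rectifier current of the heart. It was the most abundant of the 10, at 169.2, 160.1 and 156.5 FPKM with 2KR-MYB and at 137.6, 132.3 and 139.6 FPKM with ANAA-MYB. The libraries were 16.9 FPKM apart at their closest, while the ratio of the means was only 1.19. This corresponds to a log2 difference of 0.24 (SE 0.048; 0.21 to 0.27 with each library left out). Of the other channels of its family, only KCNH5 passed the filter on low values, at 1.73 against 1.31 FPKM (0.24, limma adjusted p = 0.10). The auxiliary subunit KCNE3 was at 4.37 against 3.22 FPKM (0.34, limma adjusted p = 0.067), while KCNE1, KCNE2 and KCNQ1 were under 0.1 FPKM in every library.

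CNKSR3 (ENSG00000153721, chromosome 6, 154387515 to 154510685) encodes a scaffold protein that helps aldosterone to keep the epithelial sodium channel active. It had 15.7, 16.1 and 15.9 FPKM with 2KR-MYB, against 8.87, 9.21 and 11.1 FPKM with ANAA-MYB. The 2KR-MYB libraries differed little and lay 4.57 FPKM above the highest ANAA-MYB library, the third. The log2 difference was 0.66 (SE 0.082), and 0.75 without that library, the highest value with any library left out. None of the 7 tested genes that act with it was called, against 13.0% of all tested genes. The relative CNKSR1 was at 2.47 against 1.50 FPKM (0.46, limma adjusted p = 0.049), and the aldosterone-induced kinase SGK1 at 16.0 against 12.4 FPKM (0.34, limma adjusted p = 0.015). NEDD4L, the ligase that removes the sodium channel from the membrane and that SGK1 holds back, had 55.5, 29.2 and 24.5 FPKM in the 2KR-MYB libraries, compared with 15.4, 12.1 and 16.7 FPKM with ANAA-MYB. The libraries did not overlap, but the first 2KR-MYB library stood far above the others and the difference did not pass (1.17, SE 0.27, limma adjusted p = 0.014). Without that library it passed (adjusted p = 0.0080), and likewise without the third. The channel subunits SCNN1B and SCNN1G were listed at 0 and the kinases MAP2K1 and MAP2K2 had log2 differences of -0.14 and -0.05.

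The remaining pair, a chaperone and a cytoskeletal protein, was higher with ANAA-MYB. DNAJC12 (ENSG00000108176, chromosome 10, 67796669 to 67838188) is the co-chaperone that brings HSC70 to the aromatic amino acid hydroxylases. It had 13.2, 14.3 and 14.4 FPKM with 2KR-MYB, against 21.6, 26.3 and 24.0 FPKM with ANAA-MYB, 7.18 FPKM apart at the closest. The log2 difference was -0.73 (SE 0.076; -0.80 to -0.67 with each library left out). Among the hydroxylases it serves, TH reached at most 0.0352 FPKM, TPH1 0.472 and TPH2 0.153, and HSC70 itself (HSPA8), at 2447 against 2739 FPKM, did not pass (-0.16, limma adjusted p = 0.15).

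Enzymes that make and recycle tetrahydrobiopterin, the cofactor of those hydroxylases, were expressed. Of the 7 genes of the list that were tested, 2 were called (28.6%, against 13.0% of all tested genes). Both were higher with 2KR-MYB, where 5.57% of all tested genes were called, and so opposite to DNAJC12. GCH1, which commits GTP to this pathway, was at 4.52 ± 0.148 against 2.96 ± 0.0720 FPKM (SD, n = 3 each; 0.48, SE 0.072, limma adjusted p = 0.0024), and the dehydratase PCBD1 at 55.3 ± 0.576 against 46.9 ± 0.759 FPKM (SD, n = 3 each; 0.23, SE 0.041, limma adjusted p = 0.0052). GCH1 was lost without the first or second library of either rescue, with an adjusted p of up to 0.013, and PCBD1 in all 6 fits with a library left out, with an adjusted p of up to 0.024. The reductases SPR (0.24, limma adjusted p = 0.016) and QDPR (0.20, limma adjusted p = 0.070) did not pass, and PTS (0.02) hardly differed.

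NEFH (ENSG00000100285, chromosome 22, 29480218 to 29491390) encodes the heavy neurofilament subunit of axons. It had 6.37, 6.63 and 7.63 FPKM in the 2KR-MYB libraries, compared with 10.8, 11.1 and 12.6 FPKM with ANAA-MYB, and 3.13 FPKM lay between the closest libraries. The log2 difference was -0.67 (SE 0.086; -0.74 to -0.60 with each library left out). The light and medium subunits NEFL and NEFM, with which it forms filaments in neurons, were listed at 0 in every library, as was INA. Nestin (NES), an intermediate filament protein of progenitor cells, was also lower with 2KR-MYB at 5.89 ± 0.309 against 8.60 ± 0.634 FPKM (SD, n = 3 each; -0.48, SE 0.074, limma adjusted p = 0.0028). It was called as 1 of 3 tested genes of the list (33.3%, against 13.0% of all tested genes). The call was lost without 2KR-MYB library 1 or ANAA-MYB library 2 or 3, with an adjusted p of up to 0.014. Vimentin (VIM), the main filament protein here, was at 655 against 823 FPKM (-0.34, limma adjusted p = 0.014) and did not pass.

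Over all 10 lists together, 12 of 77 tested partner genes were called (15.6%, near the 13.0% of all tested genes), 9 higher and 3 lower with 2KR-MYB. A further 44 of the 121 partner genes were below the filter. Without that filter 6 of the 12 calls were kept, those of ARID4A, CDKN1A, DDIT3, CNOT7, MEX3A and PCBD1, and the first 5 of these passed in every other setting too. The replicate block lost the calls of EGR1, PCF11, GCH1 and PCBD1.

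Cells of another type would bring their own markers. Of 6 neuron markers, RBFOX3, MAP2, SNAP25 and STMN2 were below the filter, STMN2 was listed at 0, and the summed level of the list ran from 11.6 to 14.6 FPKM with 2KR-MYB and from 11.6 to 15.0 FPKM with ANAA-MYB. Of the 2 tested, SYP was called (4.28 against 2.03 FPKM; 0.79, limma adjusted p = 0.0020), while TUBB3, which makes up most of the sum, was at 8.84 against 10.98 FPKM and did not pass (-0.28, limma adjusted p = 0.092). Of 5 lymphoid and monocyte markers, MS4A1 was listed at 0 and 2 were tested; PTPRC, the leukocyte antigen CD45, was called (13.0 against 6.92 FPKM; 0.84, limma adjusted p = 0.0019), and the summed level was 14.9 to 15.9 against 8.71 to 11.1 FPKM. SYP was lost without the first 2KR-MYB or second ANAA-MYB library and PTPRC without the second of either rescue, each with an adjusted p of 0.011 at most in these fits. With no filter on low values both calls were also lost (limma adjusted p = 0.017 for SYP and 0.016 for PTPRC).

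All 8 markers of the erythroleukemia itself were expressed, as the label K562 calls for. With 2KR-MYB, 1 was called higher and 3 lower (50% called, against 13.0% of all tested genes). The erythroid factors KLF1 (19.2 against 30.7 FPKM; -0.65, limma adjusted p = 0.00032) and GATA1 (78.2 against 107 FPKM; -0.45, limma adjusted p = 0.00049) and the transferrin receptor TFRC were lower. Among the fits with a library left out, TFRC (-0.29, limma adjusted p = 0.0078) held without the first ANAA-MYB library only. Its call was also lost with upper quartile scaling, with quantile normalization, with the replicate block and with no filter on low values. The part of these shifts in the values of the 10 genes was not tested. The globin genes HBG1 and HBG2 are near-identical copies and their separate values are uncertain.

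The 10 genes were taken from a longer list, and the rest of that list shows what it looks like without them. Of the 115 pioneer genes 109 were found by symbol, and of the 99 that are not among the 10, 93 were tested and 5 were called (5.38%, against 13.0% of all tested genes), 2 higher and 3 lower with 2KR-MYB. The 10 were picked out of this list by the contrast that is read here, so the share among the rest is no independent evidence about the list.

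DDX53, a DEAD-box helicase gene on chromosome X, stood at 3.34 ± 0.309 against 0.225 ± 0.0749 FPKM (SD, n = 3 each; 1.83, SE 0.11, limma adjusted p = 3.5e-05). KIT, the receptor of stem cell factor, was at 6.81 ± 0.426 against 3.52 ± 0.521 FPKM (SD, n = 3 each; 0.79, SE 0.099, limma adjusted p = 0.0010). Both were called in every setting in which they were tested. The calls that were lower with 2KR-MYB were KAZN (-0.43), SOGA1 (-0.34) and STAT5A (-0.34, at 113 against 144 FPKM), with limma adjusted p of 0.0053, 0.0090 and 0.0094. Each was lost in 5 of the 6 fits with a library left out: KAZN and SOGA1 held without the third 2KR-MYB library only and STAT5A without the first ANAA-MYB library only, with adjusted p of up to 0.023, 0.037 and 0.037 in the other fits. These calls were also lost with no filter on low values (limma adjusted p = 0.022, 0.027 and 0.040) and with the replicate block. SOGA1 was lost with upper quartile scaling too.

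KCNH2, with the smallest log2 difference of the 10 at 0.24 (SE 0.048), is set here, as a description, beside the gene of the pioneer list that fell just short of the threshold, TGOLN2, a protein of the trans-Golgi network, with -0.24 (SE 0.049). Next came TMEM158 (-0.61, SE 0.14) and the histone gene H2AC8 (-0.56, SE 0.13), whose reads can be split with other histone genes. H2AC8 passed without the third 2KR-MYB library (limma adjusted p = 0.0070). TGOLN2 passed with a minimum mean of 5 FPKM (limma adjusted p = 0.0094) and TMEM158 with the replicate block (limma adjusted p = 0.0032). MT4 had the largest negative difference on the list, -1.63, but with an SE of 0.51 and listed at 0 in 2 libraries it did not pass (limma adjusted p = 0.046), and it was named after its values were seen.

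Because each mutant was 1 clone, each gene was set beside its neighbours on the chromosome, the 20 tested genes on either side. In 9 of the 10 the neighbours' median log2 difference lay between -0.12 and 0.10. The exception was KCNH2. Its 40 neighbours on chromosome 7, from CUL1 to LINC01287, had a median of 0.31, 36 of the 40 were higher with 2KR-MYB, and 17 were called higher and 2 lower (47.5% called, against 13.0% of all tested genes). The difference of KCNH2, 0.24, was smaller than that median. ATP6V0E2 (1.19, limma adjusted p = 0.00062), a proton pump subunit gene, and ASIC3 (1.02, limma adjusted p = 0.00088), an acid-sensing channel gene, were the neighbours furthest above 0, while NOS3, the endothelial nitric oxide synthase gene next to KCNH2, was lower (-0.40, limma adjusted p = 0.0041; lost without library 2 or 3 of 2KR-MYB or library 1 or 3 of ANAA-MYB, with an adjusted p of up to 0.017). With no filter on low values the calls of ASIC3 and NOS3 were lost, and that of NOS3 also with quantile normalization. These neighbours were named after their values were seen.

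Around GDF15, 30 of the 40 neighbours were lower with 2KR-MYB, as were 6720 of all 12634 tested genes, and the median was -0.12 beside 1.08 for GDF15. Among these neighbours 5 were called lower and none higher (12.5% called, near the 13.0% of all tested genes). Around CNKSR3, 30 of 40 neighbours were higher with 2KR-MYB, as were 5914 of all 12634 tested genes. Of these neighbours of CNKSR3, 6 were called higher and 2 lower (20% called, against 13.0% of all tested genes). Their median was 0.10, or 0.16 over the 10 nearest on either side, beside 0.66 for CNKSR3. The tested gene next to CNKSR3 was SCAF8, the relative of SCAF4. TAC3 has DDIT3 among the 10 nearest tested genes on chromosome 12, while the median around it was -0.004. The other medians were 0.02 for SCAF4, -0.01 for DNAJC12, 0.05 for MEX3C, -0.03 for NEFH, 0.01 for SINHCAF and 0.01 for MRAP2.

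The genes most like each of the 10 were found by Pearson's r of log2(FPKM + 1) over the 6 libraries, leaving out the 10 themselves. With 2 groups of 3 libraries, r mostly reflects the gap between the rescues and then the order of libraries within them, and 2 to 64 genes had r above 0.99 with each of the 10. The closest to SCAF4 were the retinal dehydrogenase gene ALDH1A1 (r = 0.999, at 110.3 against 38.2 FPKM) and ANKRD33. GDF15 was closest to VEGFA, the angiogenic growth factor (r = 0.998, at 55.0 against 37.8 FPKM), and RALY. The profile of DNAJC12 was matched by NIPA1 and MGST1, a microsomal glutathione transferase (r = 0.996, at 52.3 against 101 FPKM), and that of NEFH by HEATR1, a factor of ribosome biogenesis (r above 0.999, at 37.9 against 53.9 FPKM), and LINC01234. For TAC3 they were PPFIA1 and SAMD8, for CNKSR3 PJA2 and TIMM50, for MEX3C MSX1 and ASAP1, and for MRAP2 THAP4 and HARS1. SINHCAF and KCNH2 shared RAB5A, a regulator of early endosomes (r = 0.996 and 0.993), beside SPOCK1 and B3GNT5, and they had the fewest genes with r above 0.99, at 2 and 3.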

How the data were processed

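Poly(A) RNA from the 6 K562 libraries was sequenced as stranded pairs of 150 bp reads. The authors trimmed the reads with Trimmomatic 0.36, aligned them to GRCh38 with TopHat2 2.1.1 and estimated expression with Cufflinks and Cuffdiff 2.2.1, per the submitters' notes, and deposited FPKM per gene and library, normalized for transcript length and mapped fragments. FPKM are not counts: the reads behind a value are unknown, no whole-read steps were found (at most 7.4% of values under 0.5 FPKM lay on a common ratio within 1%), and no counting interval can be given. A further 12 columns of per-sample values were not used here.

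Gene IDs were matched to symbols and positions of RefSeq GRCh38.p14 (55854 of 58288 matched to a symbol, and 11541 of the 12634 tested genes had a position). The 10 genes and the gene lists were chosen with earlier results of these data known. Genes whose 6 libraries averaged 1 FPKM or more were tested with limma 3.58.1 in R 4.3.3 (empirical Bayes with a mean trend on log2(FPKM + 1), 2KR-MYB rescue minus ANAA-MYB rescue, no covariate, Benjamini-Hochberg over all tested genes, threshold 0.01). The study's own test needs reads and could not be run. The groups came from the labels, which call the samples biological replicates; each group was 1 clone, so a p-value measures the spread between cultures of a clone.

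Beside MYB and the 10 genes, the text names every other pioneer gene past the threshold and the 3 nearest to it, up to 3 called genes of each partner list with the family relatives above 1 FPKM, and the 2 genes with the highest r to each of the 10. Other partner genes, markers and neighbours were named after their values were seen. A few genes of these lists enter the counts and are not reported here by name. Summary tables were made in Python 3.11.15 with pandas 2.3.3, numpy 2.4.6 and scipy 1.17.1, and plots with matplotlib 3.10.9. Alternatives were a pseudocount of 0.1, no filter on low values, a minimum mean of 5 FPKM, quantile normalization, upper quartile scaling, the replicate number as a block, a threshold of 0.05, 10 neighbours a side and leaving out each library.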

Additional observations from a re-analysis of the deposited data

How the results depend on the processing

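The number of genes called between the rescues was 1642 and fell to 942 with no filter on low values (more genes enter the adjustment) and to 1089 with the replicate block, and it was 3402 at a threshold of 0.05 and 831 to 1139 with each library left out. For the other pioneer genes the count of 5 became 2, 3 and 21 under the same 3 settings and 2 to 6 with each library left out. For the partner genes the count of 12 became 6 with no filter, 26 at a threshold of 0.05 and 5 to 13 with each library left out. The replicate numbers did not pair the libraries: deviations of same-numbered libraries correlated at -0.052, -0.035 and -0.003, and 8 partner genes were called with the block. Under upper quartile scaling, which moved the median difference of all tested genes by 0.039, 54.5% of the calls were higher with 2KR-MYB, against 42.9% as deposited. SCAF1, which was not called, changed direction to 0.0186 without the third 2KR-MYB library, and ranged from -0.12 to 0.02 with each library left out. The cause of these changes was not tested. MYB kept its direction and stayed short of the threshold of 0.01 in every setting. The 10 genes and the genes most like them kept their direction in every setting run, with 323 values within 1 SD of the value reported and 21 beyond it. TAC3 gave no value at a mean of at least 5 FPKM. Over 39 other named genes, 369 values kept their direction and side of the threshold, 81 lost the call, 9 gained it and 1 changed direction. Depth is unknown, and 3 libraries a rescue limit the precision.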

Other observations

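Within the 2KR-MYB rescue, GDF15 was highest in the second library and lowest in the third, and the same order held in 10 of the 13 tested genes listed with it (76.9%), against 17.3% of all 12634 tested genes. SESN2, a stress-induced inhibitor of mTORC1, was at 26.2, 30.0 and 20.6 FPKM, GADD45A, a DNA damage response gene, at 58.6, 64.0 and 48.3 FPKM, and ATF3 at 12.4, 15.0 and 10.4 FPKM. This order was noticed after the values were seen, the genes are not independent of each other, and it was not tested.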
